A study of Macaca mulatta with 24 samples.

Results

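The genes described here are RAB small GTPases and the sorting nexins (SNX), vacuolar protein sorting genes (VPS) and charged multivesicular body proteins (CHMP) with which they share the endosomal system. They were taken by name: every gene whose symbol in the annotation of the Illumina HumanHT-12 V4 array begins with RAB, SNX, VPS or CHMP followed by a digit, provided that at least 1 of its probes was detected (detection p under 0.01) on 4 or more of the 24 arrays. Of 153 genes with such a name, 113 met the detection rule, among 9884 genes measured in all. They comprise 50 RAB, 24 SNX, 31 VPS and 8 CHMP genes.

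Temporal neocortex came from adult male rhesus monkeys (Macaca mulatta, 7 to 13 years old) kept for 24 months on 1 of 3 diets, with 1 array per monkey. The HFS+R group (n = 10) ate a high-fat/high-sugar diet, in which fat supplied 42% of kcal and sucrose made up 27% by weight, together with resveratrol in flavored treats given 2 times a day (40 mg per treat during year 1, 240 mg per treat during year 2). The HFS group (n = 10) ate the same diet with placebo treats, and the standard diet group (SD, n = 4) took 13% of kcal from fat and less than 5% sucrose, also with placebo treats. Levels are given as Z-normalized log2 signal: the centred signals of each array were divided by their own standard deviation and then multiplied by 1.46. That standard deviation ran from 1.32 to 1.58 between arrays, so a difference of 1 is only roughly a doubling. Every fold change below is a difference of group means in these units. The probes are human ones, and their match to monkey transcripts was not assessed.

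RAB proteins switch between a GDP-bound and a GTP-bound form, and in the GTP-bound form recruit the motors, tethers and coats that carry a vesicle to its target. Each compartment has its own: RAB1 and RAB2 proteins serve the passage between endoplasmic reticulum (ER) and Golgi, RAB5 proteins the early endosome, RAB11 proteins the recycling endosome, RAB7A the late endosome, and RAB3A the synaptic vesicle. From the early endosome a cargo is either returned by retromer (VPS26, VPS29 and VPS35) with sorting nexins, or packed into the inner vesicles of a multivesicular body by the ESCRT complexes, whose last step is carried out by CHMP filaments and the VPS4 ATPases. In neurons this sorting sets how long receptors stay at the synapse.

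Of the reference genes fixed for this description, RAB5A and VPS26A were among the 40 genes that were not detected and have no value here. The members nearest the detection rule were RAB39B, RAB42 and RAB4A, each detected on 4 arrays, RAB29 on 5 and RAB34 on 6, whereas CHMP1A and VPS13B were detected on 3 arrays and CHMP6 on 1, and so fell outside it. Within each family the probe signals spanned a wide range. RAB6B, a Golgi RAB of neurons, had the highest mean log2 signal of the RAB probes (12.5) and RAB39B the lowest (6.06). The corresponding extremes were SNX27 (11.2) and SNX9 (6.18), VPS29 (10.5) and VPS54 (6.28), and CHMP5 (10.9) and CHMP2B (6.31). A signal depends on its probe as well as on the transcript, so these values give no order of abundance between genes.

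Each array correlated on average at 0.976 or more with the remaining ones. The SD of the log2 signal over all probes of an array was 1.42 to 1.58 (median 1.47) in HFS+R, 1.32 to 1.5 (median 1.42) in HFS and 1.40 to 1.57 (median 1.51) in SD. Neuronal markers were measured for 9 of 10 genes (SYT1 was not detected), with none past the test in HFS+R against HFS. Of 8 oligodendrocyte markers measured, 3 were higher in HFS+R than in HFS and none lower, and their mean log2 level was 9.21 to 9.75 (median 9.39) in HFS+R, 8.76 to 9.47 (median 9.15) in HFS and 9.18 to 9.33 (median 9.25) in SD. Of 7 astrocyte markers 1 was higher and 1 lower in HFS+R than in HFS, and no marker of interneurons (7 measured), oligodendrocyte precursors (5), microglia (9) or endothelium and mural cells (6) passed. Fits that take the array SD or the oligodendrocyte markers into account are given after the genes. In bulk tissue, fewer cells of a type and less RNA per cell cannot be told apart.

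The first question was what resveratrol changed in these genes on the HFS diet. In HFS+R against HFS, 18 of the 113 members were higher and 7 lower at an adjusted p under 0.05 (limma, Benjamini-Hochberg over all 9884 genes). That is 15.9% of members higher, beside 9.94% of all genes, and 6.19% lower, beside 6.07%. The share lower was near that of all genes, and the excess among the higher ones was not tested. The median log2 fold change was 0.02 over the members and 0.02 over all genes. By family, 6 RAB genes were higher and 4 lower, 6 SNX genes higher and 2 lower, 3 VPS genes higher and 1 lower, and 3 CHMP genes higher with none lower. The members past the test lay in most compartments. In retromer only VPS29 passed, and among the GARP and EARP tethers only VPS50.

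**Figure D1:**
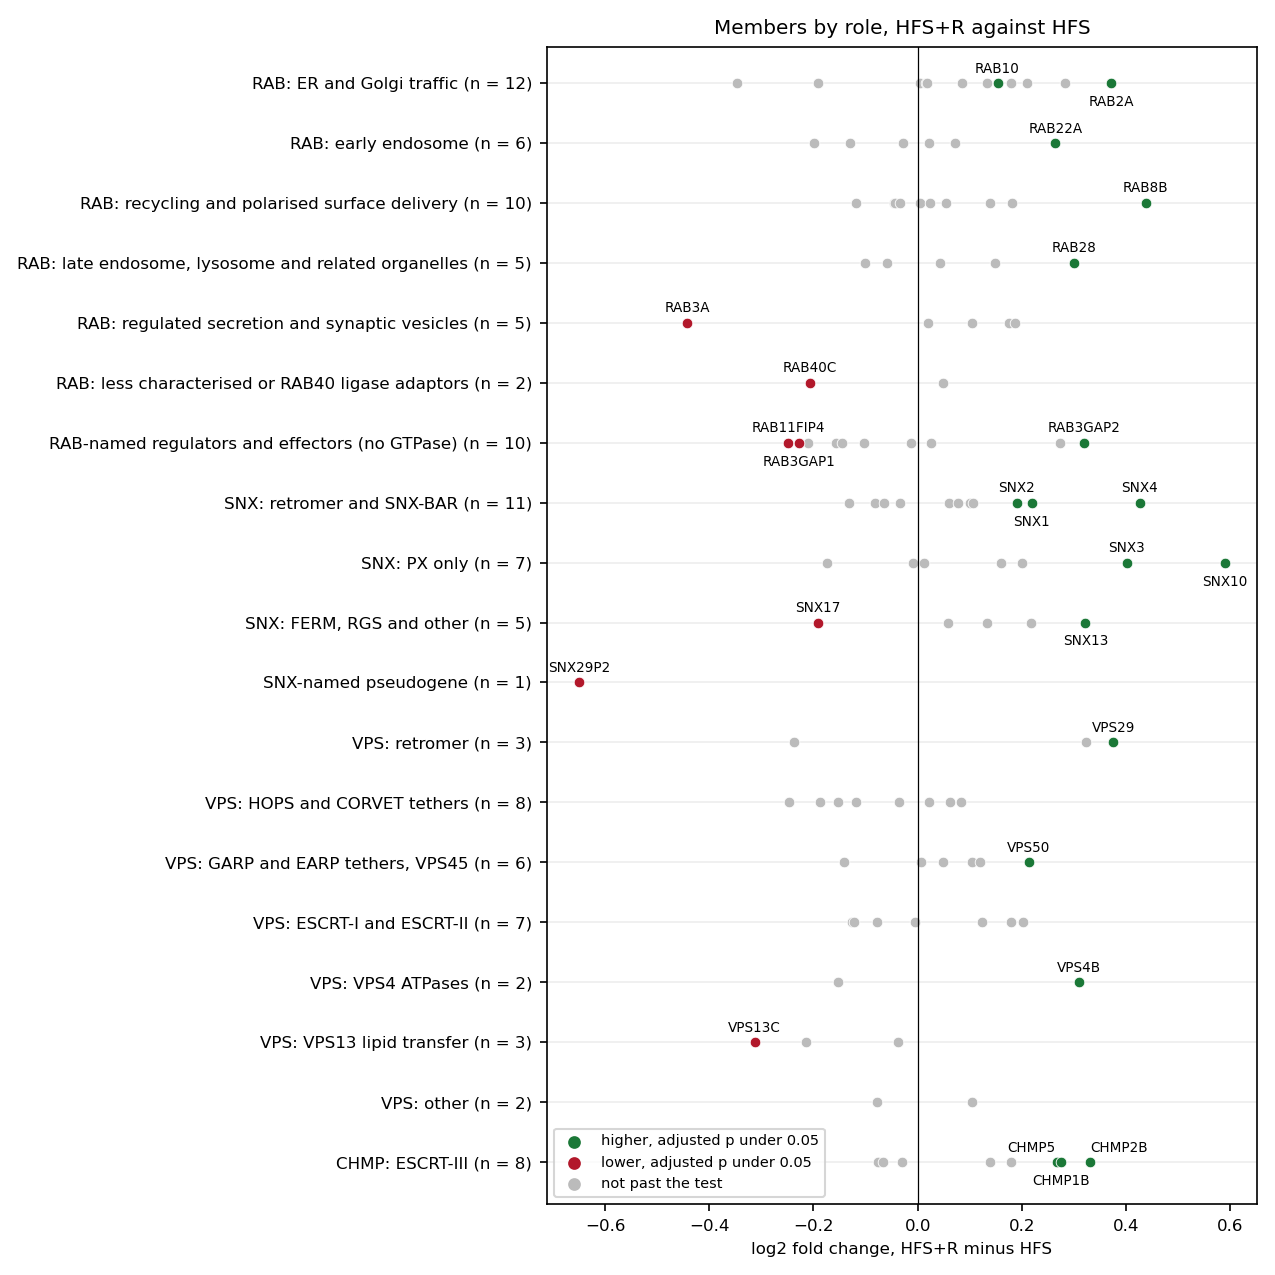
Log2 fold change of each of the 113 members in HFS+R against HFS (x axis), with 1 row per role and 1 point per gene; green points were higher and red points lower at an adjusted p under 0.05, grey points did not pass. SNX10 lies farthest to the right (0.59) and SNX29P2 farthest to the left (-0.65). No member passed among the HOPS and CORVET tethers or the VPS-named ESCRT-I and ESCRT-II subunits.

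Among the 12 RAB genes of ER and Golgi traffic, 2 were higher. RAB2A, which acts between ER and Golgi, had a level of 9.48 to 9.84 (median 9.57) in HFS+R monkeys, 9.00 to 9.52 (median 9.26) in HFS monkeys and 9.40, 9.29, 9.03 and 9.39 in the SD monkeys. Of the HFS+R monkeys, 8 of 10 lay above every HFS monkey, and the fold change was 0.37 ± 0.07 (SE, adjusted p = 0.00157). A second probe of RAB2A gave 0.33. RAB10, counted in this group although it also serves delivery to the cell surface, was 11.49 ± 0.08 in HFS+R and 11.34 ± 0.12 in HFS (SD). Its fold change of 0.15 (adjusted p = 0.0437) lost its call without any 1 of 12 arrays (adjusted p 0.0503 to 0.0886). RAB1A, a partner of RAB2A in the same pathway, averaged 8.86 ± 0.12 in HFS+R and 8.69 ± 0.11 in HFS, with a fold change of 0.18 that did not pass (adjusted p = 0.0683). RAB6B (-0.19) and RAB30 (-0.35) had the lowest values of the group and did not pass either.

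Of the 6 RAB genes of the early endosome, RAB22A alone passed. Its level was 9.92 to 10.17 (median 10.01) in HFS+R, 9.57 to 9.95 (median 9.76) in HFS and 10.15, 10.08, 9.89 and 9.82 in SD, so that 7 of 10 HFS+R monkeys lay above all HFS monkeys while the SD monkeys spread over both. The fold change was 0.26 ± 0.06 (SE, adjusted p = 0.00521). RAB5B, a close relative of the undetected RAB5A, gave -0.03 (adjusted p = 0.824).

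Of the 10 RAB genes placed under recycling and surface delivery, a group that does not hold RAB10, only RAB8B passed. RAB8B carries cargo from the Golgi and recycling endosome to the cell surface. It ran from 8.04 to 8.87 (median 8.36) in HFS+R and from 7.50 to 8.37 (median 8.02) in HFS, and was 8.88, 8.52, 8.22 and 8.10 in SD. The HFS+R and HFS groups overlapped over much of their range, with 4 HFS+R monkeys above every HFS monkey, and the fold change was 0.44 ± 0.12 (SE, adjusted p = 0.0175). RAB11A, the recycling endosome RAB, averaged 10.93 ± 0.08 in HFS+R and 10.96 ± 0.12 in HFS (SD), a fold change of -0.03 (adjusted p = 0.714).

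In the group of late endosome and lysosome RABs (5 genes), RAB7A averaged 12.21 ± 0.17 in HFS+R and 12.27 ± 0.14 in HFS, with a fold change of -0.06 (adjusted p = 0.603). RAB28, placed in this group although its place in the cell is less settled, was higher: 8.71 to 9.13 (median 8.96) in HFS+R, 8.39 to 8.91 (median 8.58) in HFS, and 8.93, 8.86, 8.71 and 8.72 in SD. Its fold change was 0.30 ± 0.07 (SE, adjusted p = 0.00722), and 0.35 on its second probe.

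RAB3A, the synaptic vesicle RAB that holds vesicles ready for release, was lower in HFS+R. Its level was 9.07 to 10.05 (median 9.86) in HFS+R, 9.97 to 10.5 (median 10.27) in HFS and 10.25, 10.3, 10.24 and 10.12 in SD. Of the HFS+R monkeys 6 lay below every HFS monkey and all 10 below every SD monkey. The fold change against HFS was -0.44 ± 0.09 (SE, adjusted p = 0.00419), and it lay between -0.47 and -0.36 with any 1 array left out. The other secretory RABs with a value were RAB26 (0.19), RAB27B (0.17), RAB3B (0.10) and RAB37 (0.02), and none of them passed. RAB40C, an adaptor of a ubiquitin ligase, was 8.28 to 8.74 (median 8.53) in HFS+R, 8.42 to 8.82 (median 8.74) in HFS and 8.69, 8.71, 8.87 and 8.86 in SD, with overlapping groups and a fold change of -0.21 ± 0.06 (SE, adjusted p = 0.0212).

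The RAB symbols also cover 10 regulators and effectors that are not GTPases. Among them, the subunits of the RAB3 GTPase-activating complex went opposite ways in the reported fit. RAB3GAP1, its catalytic subunit, was 10.54 to 10.89 (median 10.67) in HFS+R, 10.83 to 11.03 (median 10.92) in HFS, and 10.84, 11, 10.94 and 10.66 in SD. Of the HFS+R monkeys 8 of 10 lay below all HFS monkeys (fold change -0.23 ± 0.05, SE, adjusted p = 0.00696). RAB3GAP2, the partner without catalytic activity, was 9.21 to 9.75 (median 9.54) in HFS+R, 8.95 to 9.46 (median 9.17) in HFS, and 9.78, 9.52, 9.22 and 9.11 in SD, hence higher in HFS+R (0.32 ± 0.09, SE, adjusted p = 0.0170). With median scaling RAB3GAP1 did not pass (-0.02, adjusted p = 0.900). RAB3GAP2 did not pass with the array SD or with the oligodendrocyte markers as a covariate. RAB11FIP4, which binds RAB11, was 7.83 to 8.47 (median 8.26) in HFS+R, 8.12 to 8.72 (median 8.51) in HFS, and 8.64, 8.66, 8.67 and 8.48 in SD. It was lower in HFS+R than in HFS (fold change -0.25 ± 0.08, SE, adjusted p = 0.0350), a call that was lost without any 1 of 7 arrays (adjusted p 0.0565 to 0.0677).

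**Figure D2:**
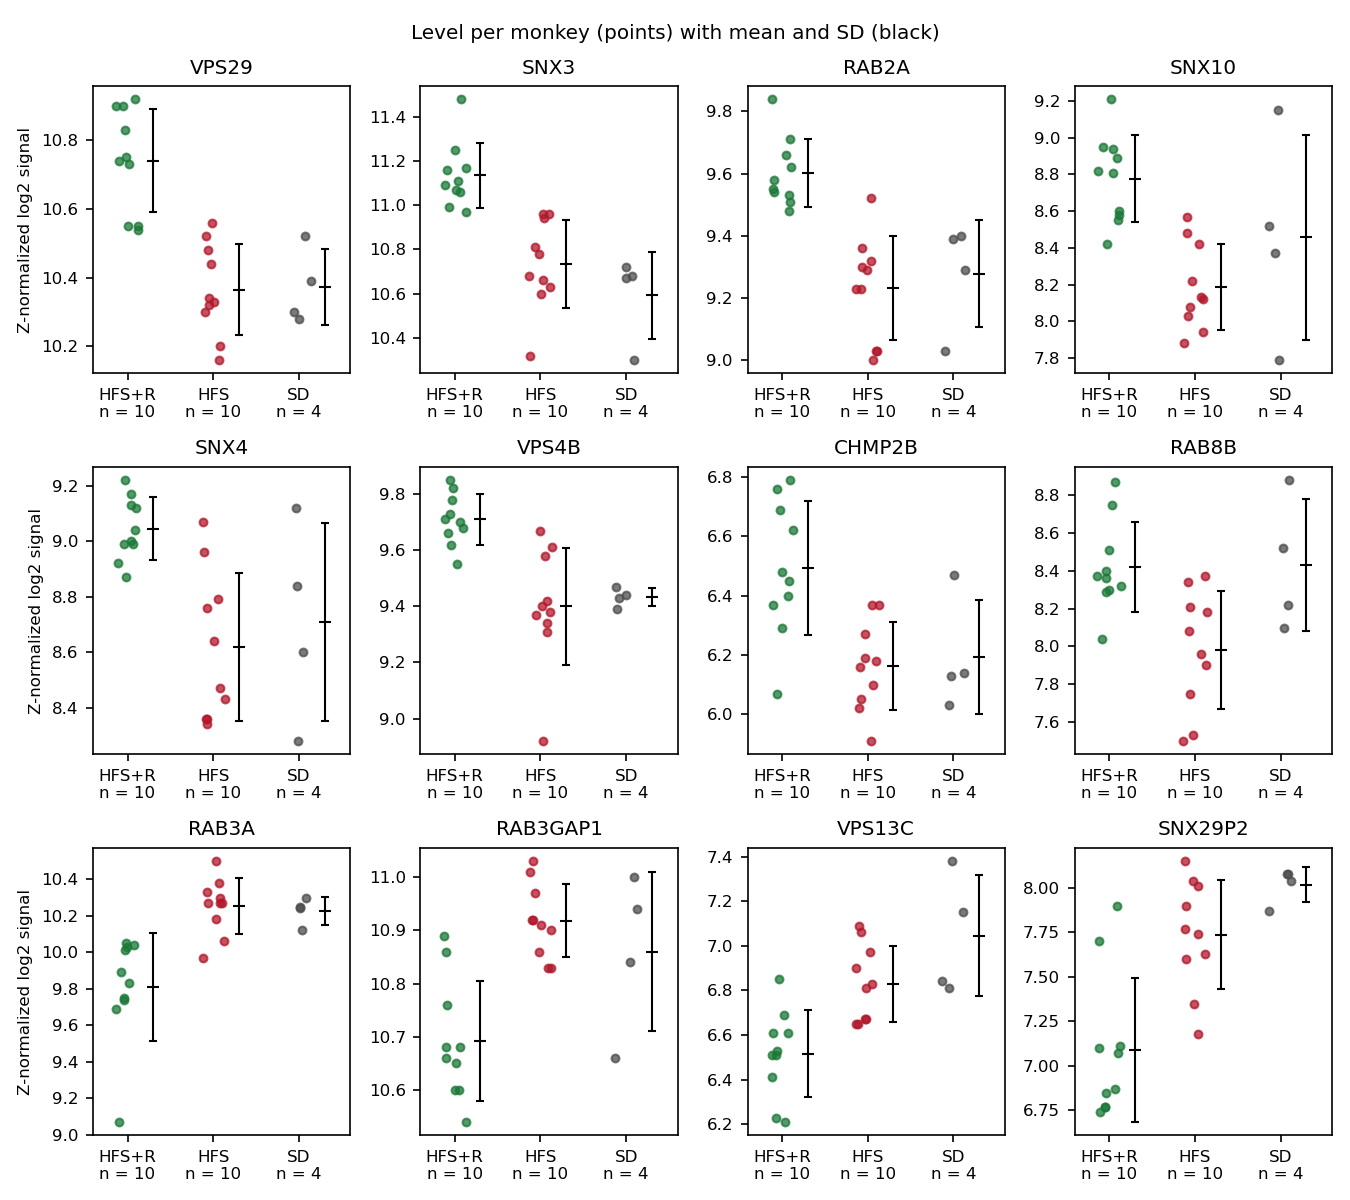
Z-normalized log2 signal (y axis, a separate scale in each panel) of 12 members in each monkey of the HFS+R, HFS and SD groups, with the mean and SD beside the points. VPS29, SNX3 and RAB2A sit higher in HFS+R than in both other groups, RAB8B is as high in SD as in HFS+R, and RAB3A has 1 HFS+R monkey at 9.07.

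Sorting nexins bind the phosphoinositides of endosomes through a PX domain, and those with a BAR domain also bend the membrane into tubules. Among the 11 BAR-type members 3 were higher in HFS+R. SNX4, which returns cargo such as the transferrin receptor to the recycling compartment, was 8.87 to 9.22 (median 9.02) in HFS+R, 8.34 to 9.07 (median 8.56) in HFS, and 9.12, 8.84, 8.60 and 8.28 in SD. HFS monkeys spread widely and 4 HFS+R monkeys lay above all of them (fold change 0.43 ± 0.10, SE, adjusted p = 0.00722). The retromer partners SNX1 and SNX2 were higher by smaller amounts. SNX1 averaged 8.38 ± 0.16 in HFS+R and 8.16 ± 0.19 in HFS (SD), a fold change of 0.22 (adjusted p = 0.0450), and SNX2 averaged 9.56 ± 0.12 in HFS+R and 9.37 ± 0.15 in HFS, a fold change of 0.19 (adjusted p = 0.0366). Those calls were lost without any 1 of 16 arrays for SNX1 (adjusted p 0.0501 to 0.0867) and of 8 for SNX2 (0.0540 to 0.0728). SNX5 (0.08) and SNX6 (0.06), which pair with SNX1 and SNX2, did not pass.

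Of the 7 sorting nexins that consist of little more than a PX domain, SNX10 and SNX3 were higher. SNX3, the nexin that brings retromer to cargo such as Wntless, was 10.97 to 11.48 (median 11.1) in HFS+R, 10.32 to 10.96 (median 10.73) in HFS and 10.3, 10.67, 10.72 and 10.68 in SD, so that the lowest HFS+R monkey stood just above the highest HFS monkey and the groups did not overlap. The fold change was 0.40 ± 0.08 (SE, adjusted p = 0.00263). SNX10, which works with the proton pump of endosomes, had the highest fold change of the members, 0.59 ± 0.13 (SE, adjusted p = 0.00430). Its level was 8.42 to 9.21 (median 8.82) in HFS+R, 7.88 to 8.57 (median 8.13) in HFS, and 9.15, 8.52, 8.37 and 7.79 in SD, a spread across the 4 SD monkeys that covered nearly the range of both other groups.

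The members with FERM or RGS domains went both ways. SNX13, with an RGS domain, was 7.56 to 8.01 (median 7.76) in HFS+R, 7.12 to 7.73 (median 7.43) in HFS, and 8.06, 7.72, 7.44 and 7.34 in SD, a fold change of 0.32 ± 0.08 (SE, adjusted p = 0.0134). SNX17, which returns LRP1 and integrins to the cell surface, was 9.63 to 9.94 (median 9.87) in HFS+R, 9.83 to 10.2 (median 10.04) in HFS, and 9.63, 9.88, 10.01 and 9.90 in SD. It was lower in HFS+R (fold change -0.19 ± 0.06, SE, adjusted p = 0.0281), and the call was lost without HFS replicate 3 or 7 or HFS+R replicate 3 (adjusted p 0.0529 to 0.0572). SNX27, which recycles glutamate receptors together with retromer, averaged 11.28 ± 0.14 in HFS+R and 11.23 ± 0.09 in HFS (SD), a fold change of 0.06 (adjusted p = 0.553).

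SNX29P2 bears the name of a pseudogene related to SNX29, and is the only member whose symbol has no entry in the RefSeq gene table of the rhesus monkey that was used to look up names. Its probe was 6.74 to 7.90 (median 6.97) in HFS+R, 7.18 to 8.15 (median 7.75) in HFS, and 7.87, 8.08, 8.08 and 8.04 in SD. Of the HFS+R monkeys 8 lay below every HFS monkey, whereas replicates 1 and 2 stood within the HFS range, and the fold change was -0.65 ± 0.14 (SE, adjusted p = 0.00430). The second probe of the same name gave -0.12. Which monkey transcript either probe reads is not known here.

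Retromer showed 1 subunit past the test. VPS29 was 10.54 to 10.92 (median 10.75) in HFS+R, 10.16 to 10.56 (median 10.34) in HFS and 10.52, 10.3, 10.28 and 10.39 in SD. Of the HFS+R monkeys 7 lay above every HFS monkey, all 10 lay above every SD monkey, and the fold change against HFS was 0.38 ± 0.06 (SE, adjusted p = 0.00118). VPS35, the scaffold of the complex, varied far more between monkeys, from 7.32 to 9.43 (median 8.25) in HFS+R, from 7.18 to 8.58 (median 7.89) in HFS, and over 8.66, 8.5, 8.00 and 6.99 in SD. Its fold change of 0.32 ± 0.25 (SE) was close to that of VPS29 and did not pass (adjusted p = 0.385). VPS26B, the only VPS26 subunit detected, averaged 9.26 ± 0.19 in HFS+R and 9.49 ± 0.24 in HFS (SD), a fold change of -0.24 (adjusted p = 0.103).

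In the ESCRT machinery, 3 CHMP genes and VPS4B passed the test, while the other CHMP genes and VPS4A did not. None of the VPS-named subunits of the earlier steps passed. Genes of the earlier steps with other names did, namely TSG101, STAM and STAM2, given below among the ESCRT partners. Of 7 ESCRT-I and ESCRT-II members none passed, with fold changes between -0.13 and 0.20. Of the 8 CHMP genes, which form the ESCRT-III filament that pinches off inner vesicles, 3 were higher. CHMP2B, mutated in a familial frontotemporal dementia, was 6.07 to 6.79 (median 6.46) in HFS+R, 5.91 to 6.37 (median 6.17) in HFS, and 6.47, 6.03, 6.13 and 6.14 in SD. It was near the detection limit, with 8 of 10 HFS+R, 4 of 10 HFS and 1 of 4 SD arrays detected, and 7 HFS+R monkeys lay above every HFS monkey (fold change 0.33 ± 0.08, SE, adjusted p = 0.0109). CHMP1B was 6.5 to 6.91 (median 6.64) in HFS+R, 6.15 to 6.55 (median 6.43) in HFS and 6.79, 6.67, 6.43 and 6.36 in SD, with 10, 7 and 3 of those arrays detected. The fold change was 0.28 ± 0.07 (SE, adjusted p = 0.00810), with 9 HFS+R monkeys above every HFS monkey. With the oligodendrocyte markers as a covariate, which were higher in HFS+R too, CHMP2B passed (adjusted p = 0.0463) and CHMP1B did not (0.21, adjusted p = 0.0667).

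CHMP5, which acts late in the assembly of the filament, averaged 11.04 ± 0.11 in HFS+R and 10.77 ± 0.19 in HFS (SD), a fold change of 0.27 (adjusted p = 0.0149), and its 2 other probes gave 0.30 and 0.36. It did not pass with the same covariate (0.25, adjusted p = 0.0630). CHMP3 (0.18) and CHMP4A (0.14) did not pass, nor did CHMP2A (-0.07), CHMP4B (-0.03) and CHMP7 (-0.08). The VPS4 ATPases, which take the filament apart, are encoded by a pair of genes. VPS4B was 9.55 to 9.85 (median 9.71) in HFS+R, 8.92 to 9.67 (median 9.39) in HFS and 9.47, 9.44, 9.43 and 9.39 in SD, with 7 HFS+R monkeys above every HFS monkey and a fold change of 0.31 ± 0.07 (SE, adjusted p = 0.00531). VPS4A averaged 7.53 ± 0.33 in HFS+R and 7.68 ± 0.20 in HFS (SD), a fold change of -0.15 (adjusted p = 0.449).

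The HOPS and CORVET tethers of endosomes and lysosomes (8 members as grouped here, VPS33B among them) had none past the test, with fold changes from -0.25 (VPS41) to 0.08. The other probes of VPS41 went the other way (0.11 and 0.17). Among the GARP and EARP tethers, VPS50, which is found in EARP alone and serves recycling, averaged 6.45 ± 0.16 in HFS+R and 6.24 ± 0.15 in HFS (SD), with 9 of 10 and 5 of 10 arrays detected. Its fold change of 0.21 (adjusted p = 0.0318) lost its call without any 1 of 5 arrays (adjusted p 0.0539 to 0.0645). VPS13C, which transfers lipids between ER and late endosomes, was 6.21 to 6.85 (median 6.52) in HFS+R, 6.65 to 7.09 (median 6.82) in HFS, and 7.38, 7.15, 6.81 and 6.84 in SD, a fold change of -0.31 ± 0.09 (SE, adjusted p = 0.0170). The dimmer second probe of VPS13C gave 0.01, and with the mean of both probes the gene did not pass (-0.15, adjusted p = 0.0880).

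Of all 25 members past the test, RAB2A, SNX3, VPS29 and SNX29P2 passed under every other setting tried. The array SD, whose median was higher in HFS+R than in HFS, moved the total most: with it as a covariate 3 members were higher (RAB2A, SNX3 and VPS29) and 4 lower (RAB3A, RAB3GAP1, SNX29P2 and VPS13C). That fit called fewer genes in all, 4.07% of all genes beside 6.19% of members, against 16% and 22.1% without the covariate. With the level of the oligodendrocyte markers as a covariate 12 members were higher and 8 lower, 17.7% of members beside 8.93% of all genes. In that fit CHMP1B, CHMP5, RAB3GAP2, RAB8B, SNX1, SNX13, VPS50 and SNX17 did not pass, whereas RAB1A was higher and SNX33 and VPS18 lower. The balance of directions differed with the scaling: quantile normalization and neqc each gave 16 higher and 13 lower, and scaling by the array median gave 24 higher and 1 lower. Over all genes quantile normalization gave 819 higher and 747 lower, neqc 781 and 708, and median scaling 1410 and 73, in place of 982 and 600. The median fold change of all genes was 0.11 with median scaling and 0.02 with Z normalization, and under median scaling RAB3A (-0.26, adjusted p = 0.114) and RAB3GAP1 (-0.02, adjusted p = 0.900) did not pass. Under Z normalization, quantile normalization, neqc and median scaling alike, 16 members were higher (the 18 above without SNX1 and SNX2) and 1, SNX29P2, lower.

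**Figure D3:**
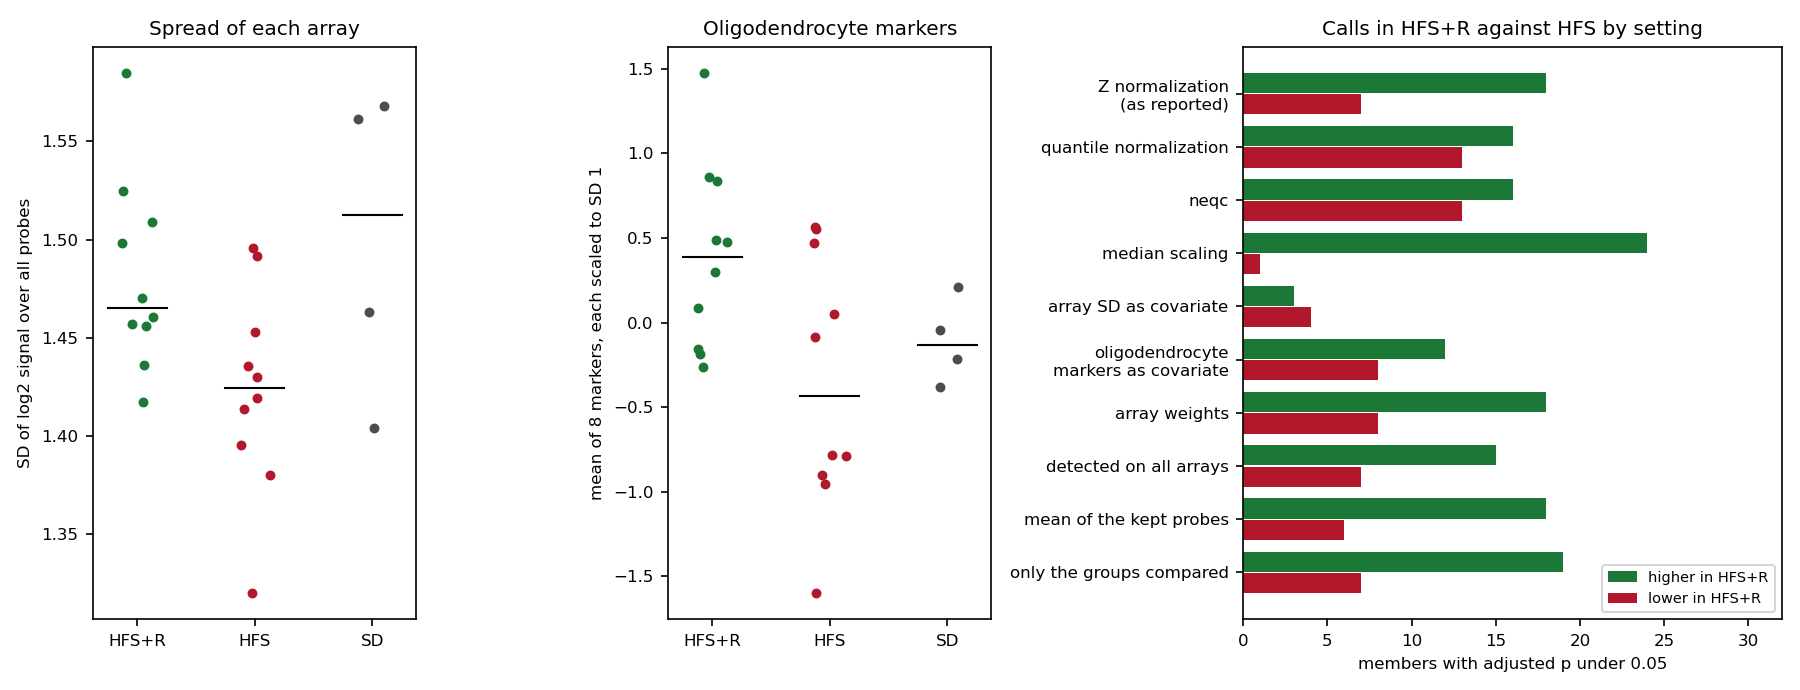
Left, SD of the log2 signal of each array; middle, mean of 8 oligodendrocyte markers on each array (each marker scaled to an SD of 1), both by diet with a line at the median. Right, number of members higher (green) or lower (red) in HFS+R than in HFS at an adjusted p under 0.05 under each setting, which falls to 3 and 4 with the array SD as a covariate and stands at 24 and 1 with median scaling.

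The genes that work with the members were taken as 4 lists, which had 113 measured genes in all. In HFS+R against HFS, 17 were higher and 8 lower, with a median log2 fold change of -0.01. That is 15% higher, beside 9.94% of all genes, and 7.08% lower, beside 6.07%, and neither these shares nor those of the single lists were tested against the rest. Unlike the members, the partner genes were not followed under the other settings or with arrays left out. Of 47 partners of the RAB cycle 6 were higher and 5 lower (12.8% and 10.6%). Higher were the RAB5 effectors APPL1 (0.35) and RABEP1 (0.26), RABGGTB (0.22), a subunit of the enzyme that attaches the lipid anchor to RAB proteins, GDI2 (0.20), which extracts RAB proteins from membranes, TBC1D9B (0.43), of a family of RAB GTPase-activating proteins, and RIMS1 (0.21), which binds RAB3 at the release site. Lower were MADD (-0.32), the exchange factor of RAB3, and RABGAP1 (-0.29), RABAC1 (-0.27), SGSM2 (-0.24) and RABGEF1 (-0.19), the exchange factor of RAB5.

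Of 20 ESCRT partners 5 were higher and 2 lower, so that 25% were higher beside the 9.94% of all genes. TSG101 (0.30, adjusted p = 0.00217), the core of ESCRT-I, STAM2 (0.42), STAM (0.34), which present ubiquitinated cargo, the deubiquitinase STAMBP (0.21) and TOM1L2 (0.25) were higher, and TOM1 (-0.21) and TOLLIP (-0.25) lower. Of 18 partners of retromer and recycling, 2 were higher (11.1%) and 1 lower (5.56%), near the shares of all genes. WASHC5 (0.28), a subunit of the WASH complex, and GOLGA5 (0.22) were the higher ones, and SORL1 (-0.46, adjusted p = 0.00871), the sorting receptor of the amyloid precursor protein, was lower. Of 28 genes of endosomal tethering and phosphoinositides, the phosphatases MTM1 (0.32) and MTMR6 (0.38) and the SNAREs STX6 (0.20) and VAMP7 (0.33) were higher (14.3%) and none lower.

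The second question was what the HFS diet changed without resveratrol. In HFS against SD no member passed (0 of 113), nor did any of the genes measured (0% higher, 0% lower). At an unadjusted p under 0.05, 7 members were higher and 7 lower, that is 6.19% each, beside 4.82% and 7.83% of all genes. A p that misses the threshold does not show that levels were alike. RAB5IF, a small membrane protein named for binding RAB5, stood nearest to the threshold. It was 11.57 to 12.04 (median 11.74) in HFS and 11.35, 11.38, 11.45 and 11.51 in SD, without overlap, a fold change of 0.34 ± 0.08 (SE, adjusted p = 0.181). The other probes of RAB5IF gave smaller values, 0.08 and 0.25.

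RAB35, a RAB of fast recycling, averaged 8.99 ± 0.09 in HFS and 8.77 ± 0.08 in SD (fold change 0.22, adjusted p = 0.247). The other members of smallest p in each family were SNX6 (0.16, adjusted p = 0.326), SNX27 (0.19, adjusted p = 0.337), the HOPS and CORVET subunit VPS16 (0.25, adjusted p = 0.273), the ESCRT-I subunit VPS37B (-0.42, adjusted p = 0.374), CHMP1B (-0.18, adjusted p = 0.393) and CHMP3 (0.18, adjusted p = 0.423). For SNX27 the direction turned with median scaling (-0.10), under which the median of all genes was -0.16 in place of -0.03. For SNX6 the second probe gave -0.17 and the mean of both -0.01, and for VPS16 the second probe gave -0.03. RAB8B (-0.45, adjusted p = 0.273) and RAB22A (-0.23, adjusted p = 0.262), both higher in HFS+R than in HFS, averaged less in HFS than in SD. For RAB8B the means were 8.42 ± 0.24 in HFS+R, 7.98 ± 0.31 in HFS and 8.43 ± 0.35 in SD, and for RAB22A they were 10.02 ± 0.09 in HFS+R, 9.76 ± 0.13 in HFS and 9.98 ± 0.16 in SD (± SD). These comparisons share the HFS monkeys, so that a low HFS mean enters both.

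**Figure D4:**
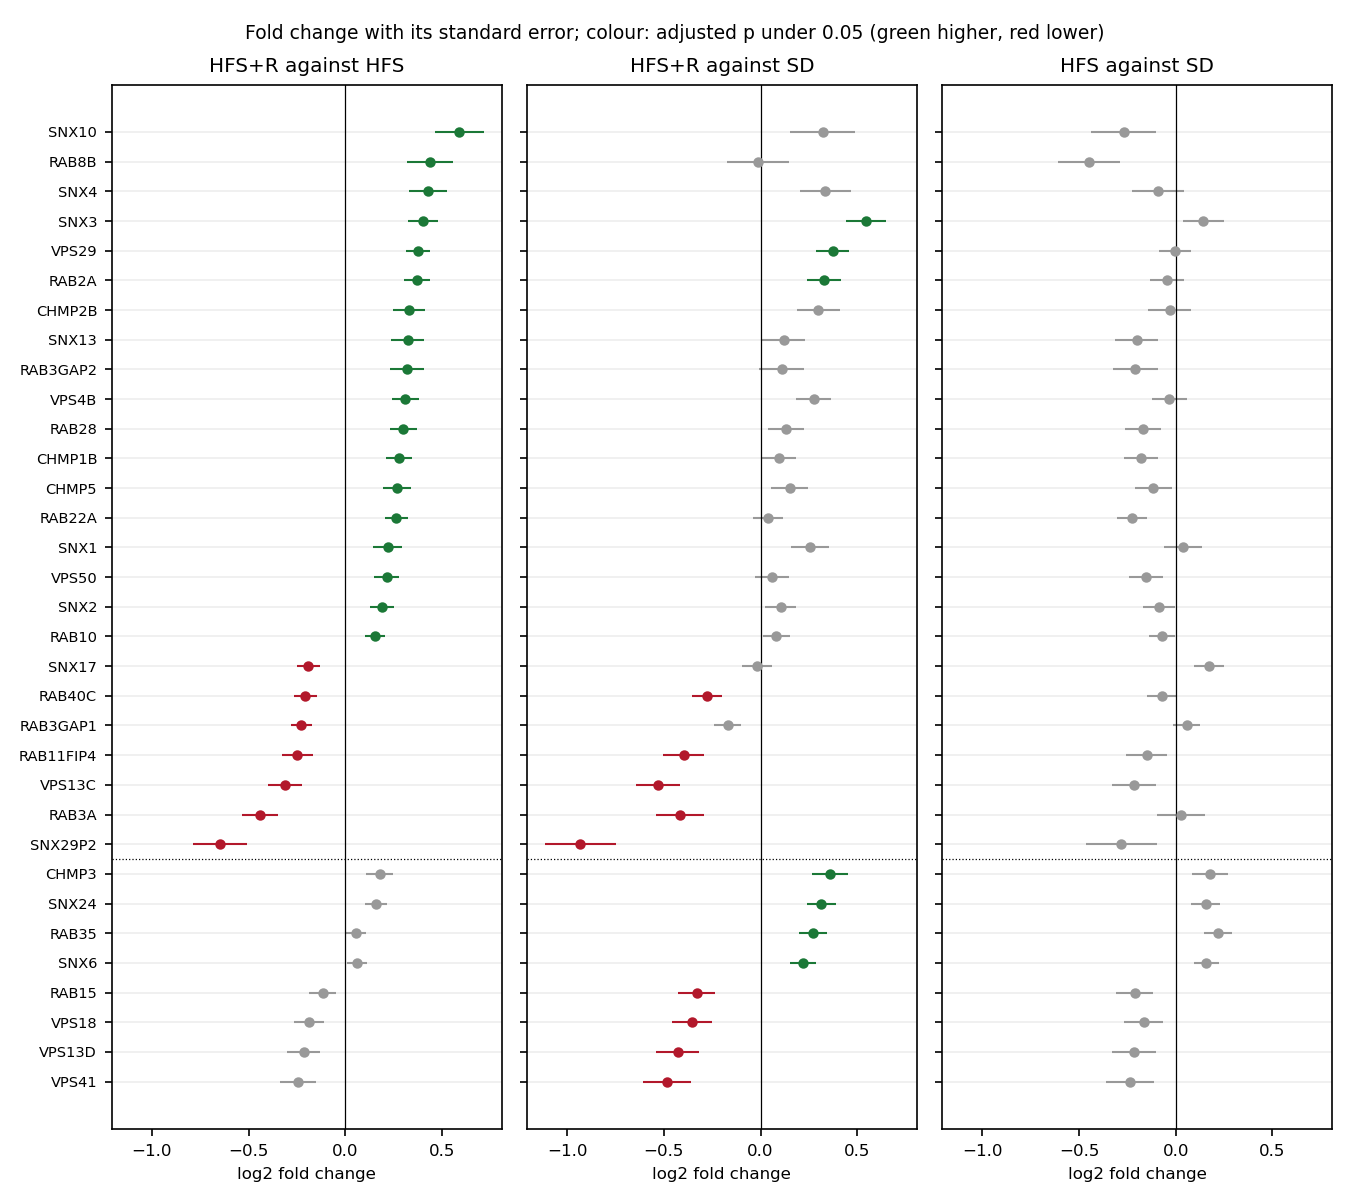
Log2 fold change with its standard error (x axis) of the 33 members past the test in HFS+R against HFS (above the dotted line) or only in HFS+R against SD (below it), in the 3 comparisons; coloured points had an adjusted p under 0.05. RAB8B lies at -0.01 in HFS+R against SD and at -0.45 in HFS against SD, and no point is coloured in HFS against SD.

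The third comparison set the supplemented monkeys against the standard diet, 2 groups that differ in diet and in resveratrol. In HFS+R against SD, 7 members were higher and 9 lower, beside 2.21% and 4.1% of all genes, and the median log2 fold change was 0.01 over the members and over all genes alike. SNX3 averaged 11.14 ± 0.15 (SD) in HFS+R and 10.59 ± 0.20 in SD (fold change 0.54 ± 0.10, SE, adjusted p = 0.00214), VPS29 10.74 ± 0.15 in HFS+R and 10.37 ± 0.11 in SD (0.37 ± 0.08, adjusted p = 0.00801), and RAB2A 9.60 ± 0.11 in HFS+R and 9.28 ± 0.17 in SD (0.33 ± 0.09, adjusted p = 0.0262). All 10 HFS+R monkeys lay above all 4 SD monkeys for these 3 genes, which were higher against HFS as well, in a comparison that shares the HFS+R monkeys. The call of RAB2A was lost without SD replicate 2 or 3 (adjusted p = 0.0656 and 0.154), and those of RAB2A and VPS29 with median scaling (adjusted p = 0.353 and 0.323).

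The other members higher than in SD had not passed against HFS. SNX24, a little studied PX protein, was 6.80 to 7.13 (median 6.93) in HFS+R and 6.60, 6.64, 6.69 and 6.65 in SD, without overlap (fold change 0.31 ± 0.08, SE, adjusted p = 0.0121). CHMP3 was 6.5 to 6.99 (median 6.85) in HFS+R and 6.23, 6.57, 6.34 and 6.64 in SD (0.36 ± 0.09, adjusted p = 0.0210), and RAB35 was 8.85 to 9.25 (median 9.08) in HFS+R and 8.73, 8.72, 8.75 and 8.88 in SD (0.27 ± 0.07, adjusted p = 0.0209). SNX6 was 7.49 to 7.72 (median 7.55) in HFS+R and 7.40, 7.31, 7.42 and 7.34 in SD (0.22 ± 0.07, adjusted p = 0.0493), but its second probe gave -0.24 and the mean of both -0.01. CHMP3 lost its call without SD replicate 1 or 3 (adjusted p = 0.0966 and 0.0892), RAB35 without SD replicate 1, 2 or 3 (0.0562 to 0.0783), and SNX6 without any 1 of 19 arrays (0.0503 to 0.155).

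Lower than in SD were SNX29P2 (-0.93 ± 0.18, adjusted p = 0.00267), VPS13C (-0.53 ± 0.11, adjusted p = 0.00533), RAB3A (-0.42 ± 0.12, adjusted p = 0.0431), RAB11FIP4 (-0.40 ± 0.11, adjusted p = 0.0225) and RAB40C (-0.28 ± 0.08, adjusted p = 0.0336), all lower against HFS too. With median scaling, RAB3A, RAB11FIP4 and RAB40C did not pass (adjusted p = 0.0755, 0.0571 and 0.118). The call of RAB3A was lost without any 1 of 9 arrays (adjusted p 0.0538 to 0.128; HFS+R replicates 1, 3, 5, 8 and 9 and each SD monkey), that of RAB40C without any 1 of 5 (0.0522 to 0.123; HFS+R replicates 9 and 10, SD replicates 2, 3 and 4) and that of RAB11FIP4 without SD replicate 1, 2 or 3 (0.0547 to 0.0759). The levels of these genes are given above, and all HFS+R monkeys lay below all SD monkeys for RAB3A and RAB11FIP4. The second probe of SNX29P2 gave -0.43. The second probe of VPS13C gave 0.16, and with the mean of both probes the gene did not pass (-0.19, adjusted p = 0.179). Of the 3 VPS13 members, VPS13D, which acts at mitochondria, was 7.23 to 7.85 (median 7.55) in HFS+R and 7.97, 8.01, 7.86 and 7.99 in SD (-0.43 ± 0.11, adjusted p = 0.0212), whereas VPS13A gave -0.08 (adjusted p = 0.655).

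The HOPS subunits VPS41 and VPS18, which bring late endosomes and lysosomes together, were lower as well. VPS41 was 7.98 to 8.44 (median 8.26) in HFS+R and 8.87, 8.58, 8.57 and 8.90 in SD (-0.48 ± 0.12, adjusted p = 0.0186), although its 2 other probes gave 0.03 and 0.09 and with the mean of all 3 it did not pass (-0.12, adjusted p = 0.475). VPS18, of HOPS and CORVET alike, was 7.56 to 8.15 (median 7.92) in HFS+R and 8.08, 8.30, 8.46 and 8.14 in SD (-0.35 ± 0.10, adjusted p = 0.0380). RAB15, a RAB of neuronal early and recycling endosomes, was 7.53 to 8.02 (median 7.88) in HFS+R and 8.28, 8.18, 8.02 and 8.12 in SD (-0.33 ± 0.09, adjusted p = 0.0343). With median scaling neither VPS18 (adjusted p = 0.0523) nor RAB15 (adjusted p = 0.115) passed. Leaving out 1 array ended the call of VPS13D in 3 cases and of VPS41 in 2, all of them SD monkeys, of VPS18 in 7 (HFS+R replicates 3, 8, 9 and 10, SD replicates 2, 3 and 4) and of RAB15 in 6 (HFS+R replicates 8, 9 and 10, SD replicates 1, 2 and 4). Among the partners SORL1 was lower (-0.58) and WASHC5 higher (0.33) against SD, and in all 5 partners were higher and 6 lower. That is 4.42% higher, beside 2.21% of all genes, and 5.31% lower, beside 4.1%, and these shares were not tested.

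**Figure D5:**
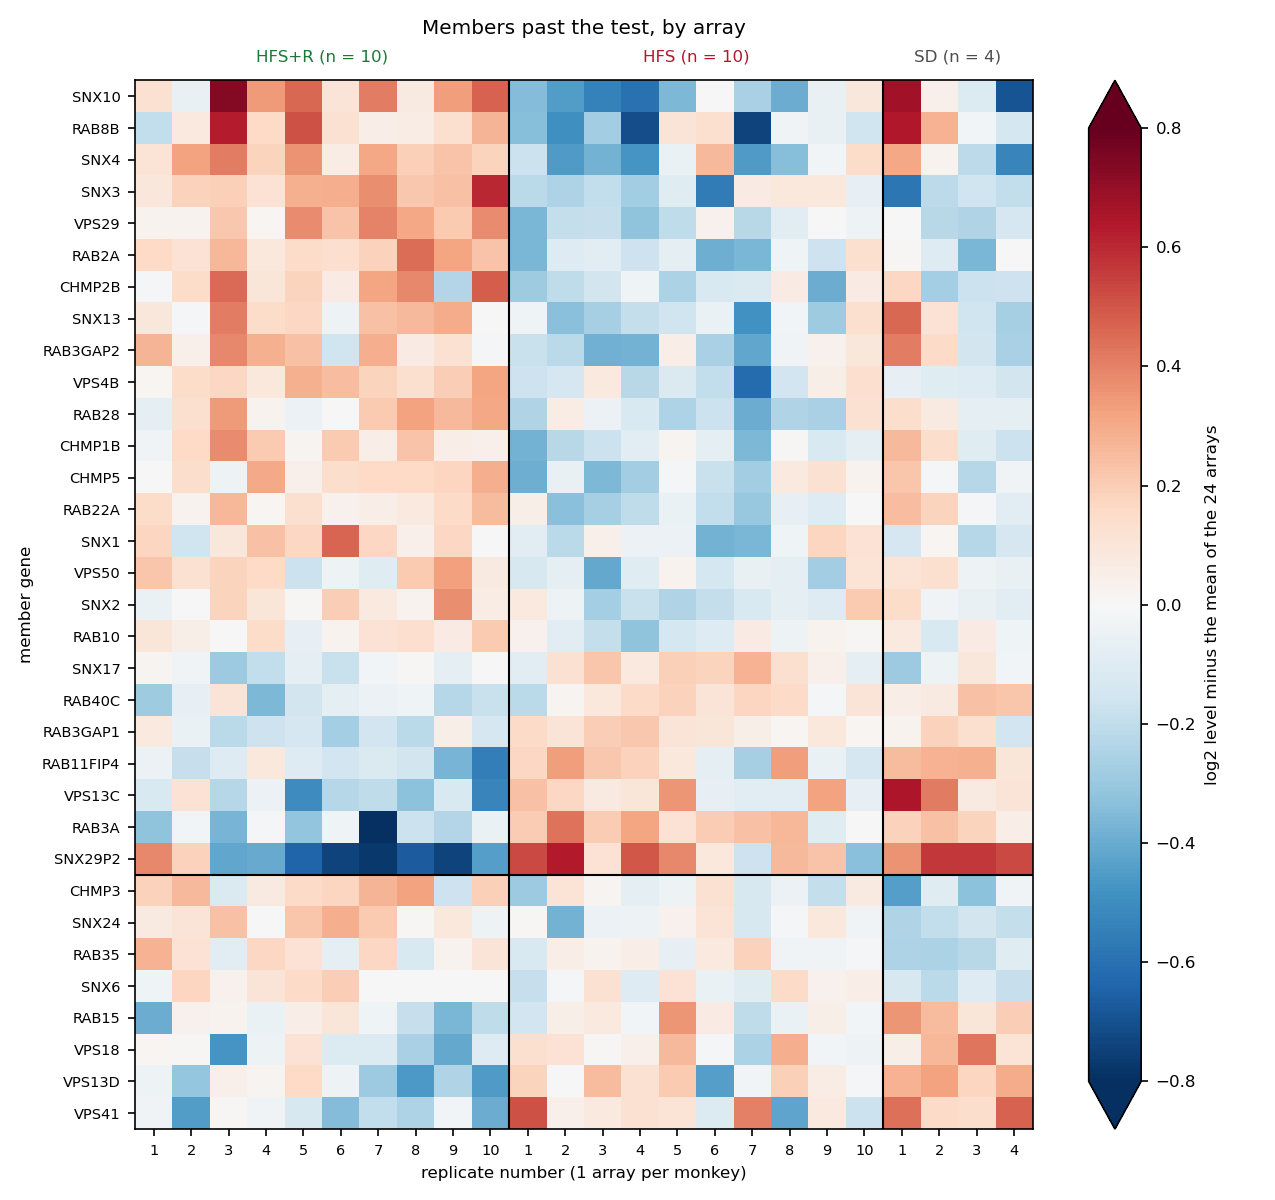
Log2 level of the 33 members past the test in HFS+R against HFS (above the line) or only in HFS+R against SD (below it), in each of the 24 arrays, as the difference from the mean of all arrays of that gene (red above, blue below). Single monkeys depart from their group, such as HFS+R replicate 7 for RAB3A (9.07) and HFS replicate 7 for VPS4B (8.92).

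The number of members called against SD depended on each of the 4 SD monkeys: without SD replicate 1, 2, 3 or 4 the 16 calls became 10, 7, 8 and 10. The share of all genes called fell as well, to 5.39%, 3.58%, 3.77% and 4.51% in those fits, against 6.30% with all arrays. Under all 4 ways of scaling 2 were higher (CHMP3 and SNX3) and 4 lower (SNX29P2, VPS13C, VPS13D and VPS41). The study's methods also call genes by a Z ratio (the group difference in Z score, divided by the SD of that difference over all probes) over 1.5 in size, p below 0.05 and a false discovery rate that is printed as over 0.3 and was taken here as below 0.3. With that reading 24 members were higher and 16 lower in HFS+R against HFS. Those thresholds passed 5 members in HFS against SD and 27 in HFS+R against SD. Over all genes they passed 26.4% in HFS+R against HFS, 5.38% in HFS against SD and 17.6% in HFS+R against SD.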

How the data were processed

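Temporal neocortex RNA of 10 HFS+R, 10 HFS and 4 SD monkeys was hybridized to Illumina HumanHT-12 V4.0 beadchips, 1 per monkey. The authors deposited a signal intensity per probe, made with GenomeStudio 2011.1, with the detection p-value that the authors took from that software. Z scores were deposited too, for which the authors centred the log2 signals of an array on their mean and divided them by their SD. Scores recomputed here matched to within 5e-10. They were multiplied by the mean of the array SDs (1.46), which restores log2 units only roughly on any single array. Probes detected (p under 0.01) on at least 4 arrays and carrying 1 gene symbol were kept (12471 of 47323), and the brightest stood for its gene. Chip, scan and batch of each array are not given in the sources used here. Arrays have no read depth, and the number of monkeys limits the precision.

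The 3 diets were fitted in 1 model on all 24 arrays with limma 3.58.1 in R 4.3.3 (2-sided), with Benjamini-Hochberg adjustment over the 9884 genes and a threshold of 0.05, after tests on simulated data. The members, the partner and marker lists and the tests were chosen with earlier results of these data known. Genes are named by a rule: every member past the threshold, with full values for at most 12 in each direction, in each family and comparison the 2 of smallest p, 12 fixed reference members, the brightest and dimmest of each family, those nearest the detection rule, and those whose probes disagree. Replicate numbers in the labels were not treated as pairs: same-numbered monkeys of HFS+R and HFS deviated together with correlations of -0.12 to 0.25, over 0.1 in 2 of 10 pairs. Other settings were quantile normalization, neqc (offset 16), median scaling, the deposited Z scores, no filter, detection on all arrays, the mean of a gene's probes, only the groups compared, array weights, the replicate number as a block, the array SD or the oligodendrocyte markers as a covariate, the study's thresholds (false discovery rate taken as below 0.3), and each array left out in turn. Member symbols were looked up in the RefSeq gene table of the rhesus assembly, which held 112 of 113. Python 3.11.15 with pandas 2.3.3 and matplotlib 3.10.9 served for the summaries and plots.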

Additional observations from a re-analysis of the deposited data

Results flagged for a closer look

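For 37 named members in 3 diets (111 groups), 9 single values stood apart from the rest of their own diet by Dixon's criterion, which chance meets in about 1 of 20 groups. In HFS+R, RAB3A was 9.07 in replicate 7, with the nearest monkey at 9.69. Without that monkey the RAB3A fold change against HFS was -0.36 in place of -0.44, and it still passed. Among HFS monkeys, VPS4B was 8.92 in replicate 7 (nearest 9.31), VPS13D 7.25 in replicate 6 (nearest 7.67), SNX24 6.46 in replicate 2 (nearest 6.71), RAB40C 8.42 in replicate 1 (nearest 8.62) and RAB15 8.28 in replicate 5 (nearest 8.00). Among the 4 SD monkeys, SNX3 was 10.3 in replicate 1 (nearest 10.67), RAB11FIP4 8.48 in replicate 4 (nearest 8.64) and RAB35 8.88 in replicate 4 (nearest 8.75).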

How the results depend on the processing

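In HFS+R against HFS the 18 members higher and 7 lower became 3 and 4 with the array SD as a covariate, 24 and 1 with median scaling, 16 and 13 with quantile normalization as with neqc, and 24 and 16 at the study's thresholds. Of all genes, 4.07% passed with the array SD as a covariate, 15% with median scaling, 15.8% with quantile normalization and 15.1% with neqc, against 16% in the reported fit. Leaving out 1 array gave 14 to 20 higher and 5 to 12 lower (12 without HFS replicate 10). In those fits the share of all genes called moved too, from 11.2% (without HFS replicate 4) to 19.5% (without HFS replicate 10). In HFS against SD no member passed under any setting except the study's thresholds (5). In HFS+R against SD the 16 calls became 6 with median scaling, 27 at the study's thresholds, and 7 to 17 with 1 array left out (10, 7, 8 and 10 without SD replicates 1 to 4). The share of all genes called in that comparison was 3.65% with median scaling. With 1 array left out it ran from 3.58% (without SD replicate 2) to 6.74% (without HFS replicate 7). Numbers in the labels do not pair the monkeys; with the replicate number as a block, that is with monkeys of the same number treated as paired, 15 members were higher and 9 lower in HFS+R against HFS, 0 passed in HFS against SD and 0 in HFS+R against SD, where 4 pairs remain and no gene passed.

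Over 50 gene results and 1791 pairs of gene and setting, 1588 kept direction and call, 199 kept direction and lost the call, 1 gained it and 3 turned: SNX27 in HFS against SD with median scaling (-0.10), and SNX6 with the mean of its probes in HFS against SD (-0.01) and in HFS+R against SD (-0.01). The pairs kept include the fits on the deposited Z scores, which repeat the reported fit and could not differ from it. They also include results that had not passed and still did not pass. With the array SD as a covariate 18 of the 25 calls in HFS+R against HFS did not pass; the cause was not tested. Calls in HFS+R against HFS that 1 array ended were SNX1 (HFS replicates 1 to 8, HFS+R replicates 1 and 3 to 9), RAB10 (HFS 2 to 6 and 8, HFS+R 1, 4 and 7 to 10), SNX2 (HFS 3 to 7, HFS+R 3, 6 and 9), RAB11FIP4 (HFS 1 to 4 and 8, HFS+R 9 and 10), VPS50 (HFS 3 and 9, HFS+R 3, 8 and 9) and SNX17. Against SD, those that 1 SD monkey ended were CHMP3 (replicates 1 and 3), RAB2A (2 and 3), RAB35 and RAB11FIP4 (1 to 3), RAB15 (1, 2 and 4), VPS13D (1, 2 and 4), VPS41 (1 and 4), RAB40C and VPS18 (2 to 4), RAB3A and SNX6 (all 4), while SNX3, SNX24, VPS29, SNX29P2 and VPS13C passed with any 1 array left out.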
